A study of Homo sapiens with 24 samples.

Results

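The genes described here encode 10 enzymes and core subunits that place, copy or remove repressive methyl marks on DNA and on histone H3: DNMT1, DNMT3A, DNMT3B and UHRF1 for DNA, EZH2, EZH1, SUZ12 and EED for lysine 27 of the histone, SUV39H1 for lysine 9, and KDM6B, which takes the lysine 27 mark off again. They were chosen by name, with earlier results of these data known. Every probe annotated to them was taken, 19 probes of the 47224 on the array and 10 of the 20045 genes that carry a single symbol. Their mRNA was measured on 24 Illumina HumanHT-12 arrays of the multiple myeloma cell lines MM1S, which is sensitive to glucocorticoids (GC), and MM1R, which is resistant. Both are established lines of human malignant plasma cells, and MM1R is a subclone of MM1S raised under prolonged Dex, so that they stand for 1 tumour only. In the Dex experiment cells were left untreated or were exposed for 72 h to the synthetic GC dexamethasone (Dex) at 1 µM, and in the transfection experiment cells received 150 nM of a synthetic mir-150-5p mimetic for 72 h or were mock transfected. These are 4 groups per line, each of 3 arrays, and the study describes the arrays as independent experiments. The names Dex experiment and transfection experiment follow the treatment, and the sample titles name no experiment or batch. The comparisons ask whether the transcription of these genes changed with Dex, whether the change depended on the line, and whether the mimetic gave a similar change.

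Methylation of DNA at CpG sites and of histone H3 at lysine 9 and lysine 27 keeps genes silent. DNMT1 copies the DNA pattern onto the new strand during replication, and UHRF1 leads it there by binding hemimethylated DNA, while DNMT3A and DNMT3B set new marks. Polycomb repressive complex 2 (PRC2) methylates lysine 27 through EZH2, or through EZH1 in resting cells, held together with SUZ12 and EED. SUV39H1 trimethylates lysine 9 in heterochromatin. DNMT1, UHRF1 and EZH2 are known as genes of dividing cells, and many such genes are bound near their start by E2F transcription factors, which is why their promoters are shown first.

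The window from 250 bases before to 50 bases after each annotated start was read from RefSeq (GRCh38.p14). All 10 genes matched an entry, with 20 windows in total. An E2F octamer, TTTCCCGC, TTTCGCGC, TTTGCCGC or TTTGGCGC on either strand, was found in at least 1 window of DNMT1, UHRF1, EZH2, EZH1 and SUZ12, and 3.31% of all 35116 windows in the table hold such an octamer. The 6 matches are printed 5′ to 3′ on the strand of the gene with 20 bases on either side, and capitals mark the octamer or its reverse complement.
DNMT1, chr19:10194928-10194975, minus strand: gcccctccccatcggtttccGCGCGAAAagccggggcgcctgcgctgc
UHRF1, chr19:4909467-4909514, plus strand: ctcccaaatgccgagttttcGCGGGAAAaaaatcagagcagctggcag
UHRF1, second window, chr19:4909964-4910011, plus strand: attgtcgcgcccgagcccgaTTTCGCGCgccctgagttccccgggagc
EZH2, chr7:148884263-148884310, minus strand: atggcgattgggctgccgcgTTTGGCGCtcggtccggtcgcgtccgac
EZH1, chr17:42745128-42745175, minus strand: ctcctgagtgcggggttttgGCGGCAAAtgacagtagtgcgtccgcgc
SUZ12, chr17:31936798-31936845, plus strand: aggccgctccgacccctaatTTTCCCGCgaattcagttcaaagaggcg
Counted from the annotated start, the octamers of DNMT1, EZH2 and the first UHRF1 window begin at -2, 1 and -14, and those of EZH1, SUZ12 and the second UHRF1 window lie farther upstream, at -115, -189 and -160. No octamer was found in the windows of DNMT3A (6 windows), DNMT3B (1), EED (1), SUV39H1 (2) and KDM6B (2). CCAAT was found in at least 1 window of 6 of the 10 genes, with 4 copies in the first window of EZH2, and in 34.6% of all windows on either strand. TTTGAA or TTTCGAA, the element of many cell cycle genes called CHR, was found on either strand in a window of SUZ12 and of DNMT3A, 2 of the 10 genes, and in 15.7% of all windows. A count of genes and a share of windows are unlike measures, since a gene with several windows has more places for a match. For E2F the like measure is windows: the matches lay in 6 of the 20 member windows, against 3.31% of all windows. The members and the motif were chosen with earlier results known, some windows of a gene overlap, and this difference was not tested. For CCAAT and CHR the member genes are not shown to hold the motif more often than other genes. A match is a run of letters and not a measured binding site.

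Values below are log2 intensities after quantile normalization of all 24 arrays, and a probe is called over background where its detection p-value is under 0.05. Between 17059 and 21328 probes per array were over background. The line labels were checked with NR3C1, the GC receptor, whose brightest probe was over background in 3 of 3 arrays of every MM1S group and in 0 of 3 of every MM1R group, and with the receptor target TSC22D3, which rose in MM1S cells with Dex by 3.77 on the log2 scale (adjusted p = 3.05e-13) and had a change of 0.07 in MM1R cells. Without Dex the level of TSC22D3 also differed between groups. Its brightest probe read 8.87 to 9.01 in untreated MM1S and 11.06 to 11.35 in untreated MM1R arrays. The mock arrays read 10.52 to 12.13 in MM1S and 10.24 to 10.99 in MM1R cells. All 7 plasma cell markers were over background in 24 of 24 arrays, among them SDC1, IRF4 and CD38, while PAX5 of B cells, CD3D of T cells and KRT19 of epithelia were over background in 0 arrays. CD68 of myeloid cells was over background in 24 arrays, and the remaining markers of other cell types in 1 to 16 by their best probe. Replicate 3 of the MM1S mimetic group stood apart: the SD of its log2 differences was 0.18 to 0.25 from the mock arrays but 0.40 from the other replicates of its own group, which differed from each other by 0.12. Each result on the MM1S mimetic is therefore given with and without it.

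**Figure D1:**
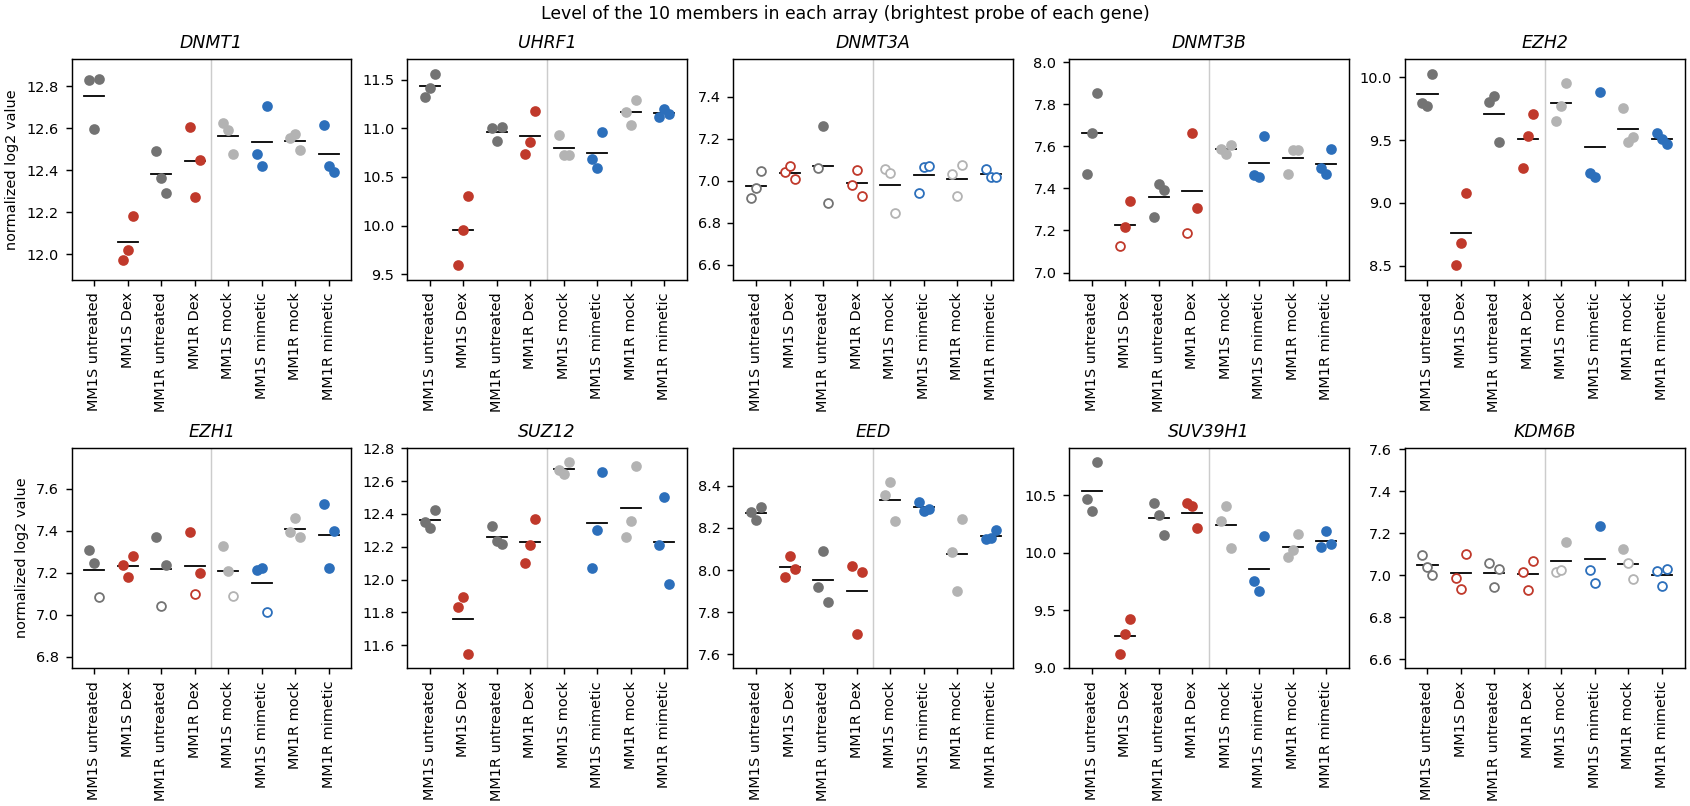
Normalized log2 value of each of the 10 members (brightest probe) in every array, by group on the x axis. Each point is an array, filled where it was over background, and the bar is the mean of 3 arrays. In DNMT1, UHRF1, DNMT3B, EZH2, SUZ12, EED and SUV39H1 the 3 Dex-treated MM1S arrays lie below the 3 untreated ones.

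Of the 8 members that could be tested, 6 fell in MM1S cells after 72 h of Dex and none rose (limma, adjusted p under 0.05). Over all 11559 genes tested 13.5% fell and 14.3% rose. UHRF1, SUV39H1 and EZH2 fell more than 2-fold, 3 of the 8, where 1.81% of all genes did. The median change of the 8 was -0.65 against 0.01 over all genes. DNMT3A and KDM6B were not over background in enough arrays for a test.

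UHRF1, the reader that brings DNMT1 to newly replicated DNA, fell the most of the 8. Its brightest probe (ILMN_1786065) read 11.33, 11.42 and 11.56 in untreated MM1S arrays and 9.60, 9.96 and 10.30 with Dex. All Dex arrays lay below all untreated arrays, by over 1 log2 unit. The fall was 1.48 ± 0.14 on the log2 scale (2.79-fold, standard error, n = 3 arrays per group, limma adjusted p = 1.98e-07). The second UHRF1 probe (ILMN_2401352) lies near background, reading 7.65, 7.68 and 7.73 untreated and 7.12, 7.03 and 7.31 with Dex, where it was over background in 1 of 3 arrays. It fell by 0.53 ± 0.11 (adjusted p = 7.85e-04).

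DNMT1, the maintenance methyltransferase, read 12.83, 12.60 and 12.84 in untreated MM1S arrays and 11.97, 12.02 and 12.18 with Dex. The groups did not overlap, and the fall of 0.69 ± 0.10 (1.62-fold, adjusted p = 4.04e-05) was smaller than that of UHRF1. DNMT3B, a de novo methyltransferase, was measured near background by its brightest probe (ILMN_2328972), with 7.47, 7.66 and 7.86 untreated and 7.13, 7.21 and 7.34 with Dex. It fell by 0.44 ± 0.11 (1.35-fold, adjusted p = 0.00709), and with normexp background correction the fall was 0.88. Without untreated MM1S replicate 3 the change was -0.34 with an adjusted p of 0.055. A second DNMT3B probe (ILMN_1794692) fell by 0.24 ± 0.08 (adjusted p = 0.0245). The third that could be tested had a change of -0.07 (adjusted p = 0.552), and the last pair of DNMT3B probes was over background in 2 and 0 of 24 arrays.

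DNMT3A, the other de novo methyltransferase, has 3 probes, and these were over background in 1, 1 and 0 of 24 arrays. Their values ran from 6.69 to 7.26 over all arrays, near background throughout.

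In PRC2, the catalytic subunit EZH2 fell on each of its 3 probes. The brightest (ILMN_2364529) read 9.79, 9.77 and 10.03 in untreated MM1S arrays and 8.51, 8.68 and 9.08 with Dex. The fall was 1.11 ± 0.14 (2.16-fold, adjusted p = 7.27e-06). The other EZH2 probes fell by 0.84 ± 0.11 (ILMN_1708105) and 1.12 ± 0.16 (ILMN_1652913), with adjusted p = 5.34e-06 and 1.75e-05. On every EZH2 probe the 3 Dex arrays lay below the 3 untreated ones.

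SUZ12, the scaffold of the complex, read 12.35, 12.32 and 12.42 untreated and 11.84, 11.89 and 11.55 with Dex in MM1S cells. The groups did not overlap, and SUZ12 fell by 0.60 ± 0.10 (1.52-fold, adjusted p = 1.47e-04). EED, the subunit that reads the lysine 27 mark, read 8.27, 8.24 and 8.30 untreated and 7.97, 8.07 and 8.0 with Dex. Its arrays did not overlap either, but the change of -0.26 (95% interval -0.47 to -0.05) had an adjusted p of 0.0711 and was not called. EZH1, the alternative catalytic subunit, read 7.31, 7.24 and 7.08 untreated and 7.24, 7.18 and 7.28 with Dex. Its groups overlapped, with a change of 0.02 (95% interval -0.17 to 0.21), at levels near background.

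SUV39H1, which writes the lysine 9 mark, read 10.46, 10.37 and 10.79 in untreated MM1S arrays and 9.12, 9.29 and 9.42 with Dex. It fell by 1.26 ± 0.12 (2.39-fold, adjusted p = 1.74e-07) without overlap. KDM6B, the demethylase of lysine 27, was over background in 3 of 24 arrays, all of the transfection experiment, and ran from 6.93 to 7.24 over all arrays.

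**Figure D2:**
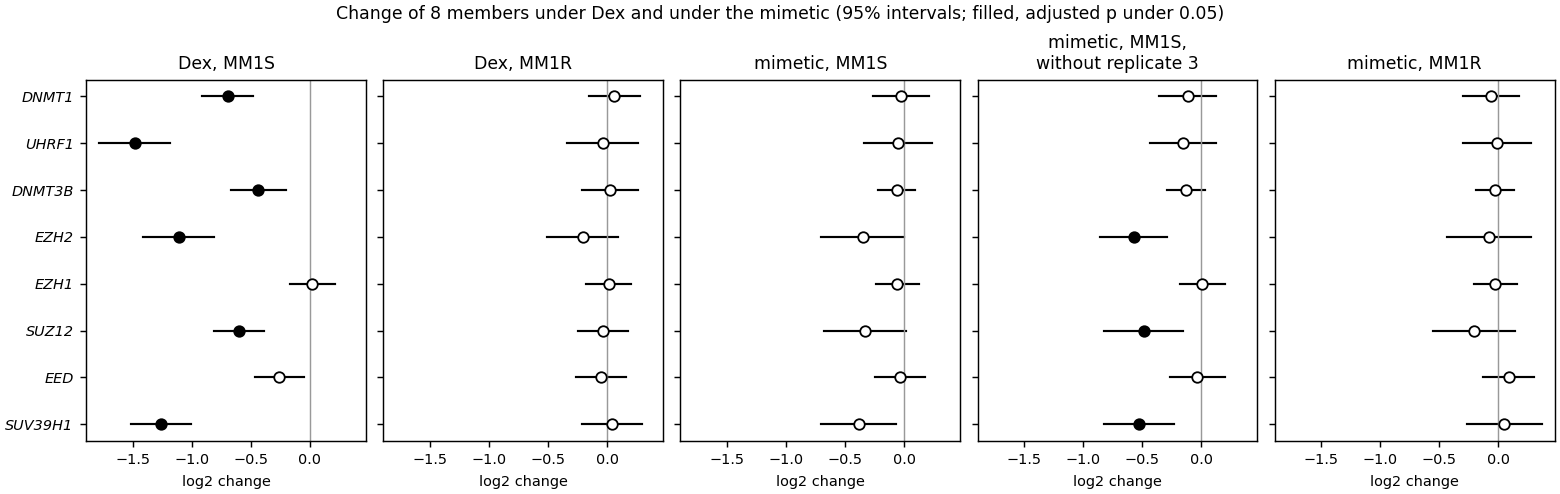
Log2 change of the 8 members tested in both experiments (brightest probe, x axis) under Dex and under the mimetic in each line, with 95% intervals; filled points have an adjusted p under 0.05. In MM1S cells 6 points are filled under Dex, none under the mimetic with 3 arrays and 3 without replicate 3, and none is filled in MM1R cells.

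In MM1R cells none of the 8 members was called with Dex (limma, adjusted p under 0.05). None of them had an unadjusted p under 0.05 on its brightest probe, and 0% of all 11559 genes were called in either direction (432 had an unadjusted p under 0.05). UHRF1 read 10.87 to 11.01 untreated and 10.73, 10.86 and 11.18 with Dex, so that the groups overlapped, and the 95% interval of its change was -0.34 to 0.26. The intervals were -0.15 to 0.28 for DNMT1, -0.21 to 0.30 for SUV39H1, -0.50 to 0.10 for EZH2 and -0.25 to 0.18 for SUZ12. Of the probes tested, only the third EZH2 probe (ILMN_1652913) was without overlap in this line, with 9.36, 9.58 and 8.73 untreated and 9.85, 9.63 and 9.60 with Dex. Its change of 0.47 was opposite in sign to that of the brightest EZH2 probe, -0.20, and its adjusted p was 0.997.

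The difference between the lines was tested itself, as the Dex effect in MM1S minus that in MM1R cells. It was below 0 and called for 5 of the 8 members, where 8.78% of all genes were. The difference was -1.44 ± 0.20 for UHRF1 (adjusted p = 5.28e-05), -1.30 ± 0.17 for SUV39H1 (2.56e-05), -0.90 ± 0.20 for EZH2 (0.00424), -0.76 ± 0.15 for DNMT1 (0.00124) and -0.57 ± 0.14 for SUZ12 (0.00951). SUZ12 was not called with median centring (-0.48, adjusted p = 0.083) or in a fit of all 24 arrays (0.071). For DNMT3B, -0.46, the adjusted p was 0.0571, and for EED, -0.21, it was 0.385. EZH1 had a difference of 0.01 (95% interval -0.26 to 0.28).

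**Figure D3:**
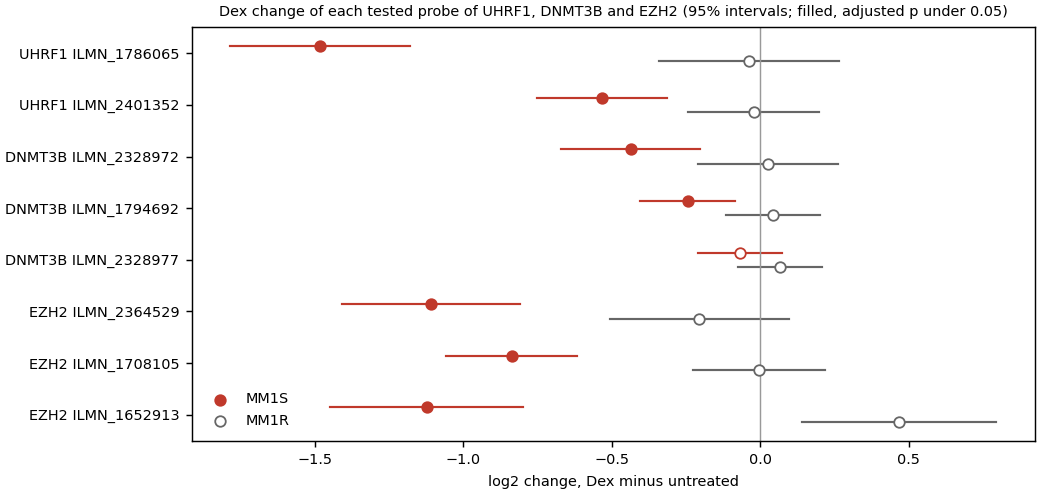
Log2 change with Dex (x axis, 95% intervals) of each tested probe of UHRF1, DNMT3B and EZH2 in MM1S (red) and MM1R cells (grey); filled points have an adjusted p under 0.05. In MM1S cells 7 of the 8 probes are filled, and the last EZH2 probe has a change of -1.12 in MM1S and 0.47 in MM1R cells.

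Genes of dividing cells moved beside these members. Of 12 proliferation markers 11 fell with Dex in MM1S cells and none rose. The log2 change was -1.83 for RRM2, which makes deoxynucleotides, -1.66 for TOP2A, a topoisomerase, and -1.51 for CDK1, the mitotic kinase, while E2F1 had a change of 0.00. The mean log2 value of the 12 markers was 10.5 to 10.6 in untreated and 9.13 to 9.51 in Dex-treated MM1S arrays, and 10.3 and 10.2 to 10.4 in the MM1R groups of this experiment. The summed intensity of the markers was 26261 to 29307 and 9197 to 12488 in these MM1S groups. Of the 7 plasma cell markers CD38 (-0.88) and IRF4 (-0.42) fell with Dex in MM1S cells, and the summed intensity of the 7 was 44337 to 50657 untreated and 41910 to 44631 with Dex. The part of either list in the result was not tested. Fewer dividing cells and less of each mRNA per cell cannot be told apart in these bulk samples.

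The wider set of methylation genes, 97 further genes in 11 lists chosen by function, showed changes both ways. Of the 80 that could be tested in MM1S cells with Dex, 14 fell and 11 rose, and the median change was -0.02. These counts are near the shares over all genes, 13.5% lower and 14.3% higher, and the genes named here are single values and not a result about the set. The falls included partners of the members. Of 8 further PRC2 subunits 3 fell. The log2 change was -1.27 for PHF19 (limma adjusted p = 2.12e-07), -0.95 for the histone chaperone RBBP4 (1.67e-06) and -0.63 for its paralogue RBBP7 (2.97e-04). None of these 8 rose. Of 8 DNA methylation partners and readers, 3 fell, with -1.33 for CDCA7 (1.29e-07), -0.99 for its remodelling partner HELLS (7.15e-07) and -0.41 for the methyl-CpG binder MBD2 (0.00993), while ZBTB33, which encodes the methyl-CpG binder Kaiso, rose by 0.52 (0.00154). Of 5 genes in a list of cytosine deamination and demethylation 3 could be tested, and each fell. The change was -1.69 for the cytosine deaminase APOBEC3B (1.51e-07), -0.41 for the glycosylase TDG (0.00552) and -0.34 for TET1, which oxidizes the methyl group (0.00892).

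Of 7 lysine 9 demethylases KDM3B rose by 0.44 (adjusted p = 0.00447), KDM3A by 0.46 (0.00863) and JMJD1C by 0.48 (0.0137), and none fell. Of 14 genes of lysine 4 methylation KDM5B, a demethylase, rose by 1.26 (4.09e-09) and the methyltransferase KMT2B by 0.35 (0.0375), and none fell. Of 9 further lysine 9 genes SETDB1, a methyltransferase, rose by 0.38 (0.0121) and the heterochromatin protein gene CBX5 fell by 0.35 (0.0176). Of 10 PRC1 subunits CBX7 rose by 0.70 (5.83e-05) and PCGF6 fell by 0.38 (0.0217).

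Outside these marks, SETD2, which trimethylates lysine 36, rose by 0.95 (3.55e-07) and NSD2, which dimethylates it, fell by 0.32 (0.0142), of 10 genes of lysine 36, lysine 79 and histone H4 lysine 20. Of 7 arginine methyltransferases PRMT2 rose by 0.87 (4.52e-07), while PRMT1 (-0.58, 0.00127) and PRMT3 (-0.36, 0.0172) fell. Of the 3 genes of S-adenosylmethionine supply MAT2B rose by 0.54 (1.84e-04). KDM6A, the other lysine 27 demethylase, had a change of 0.21 (0.177). In MM1R cells none of the 80 genes was called. The difference of the Dex effect between the lines was above 0 and called for 7 of the 80 and below 0 for 10, where 8.7% and 8.78% of all genes were. Each of the 3 further PRC2 subunits that fell was among them. So were CDCA7, HELLS, MBD2, ZBTB33, APOBEC3B, TDG, MAT2B, CBX7, KDM5B, SETD2, PRMT1 and PRMT2. For the lysine 9 demethylases and the 9 further lysine 9 genes 0 differences were called.

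**Figure D4:**
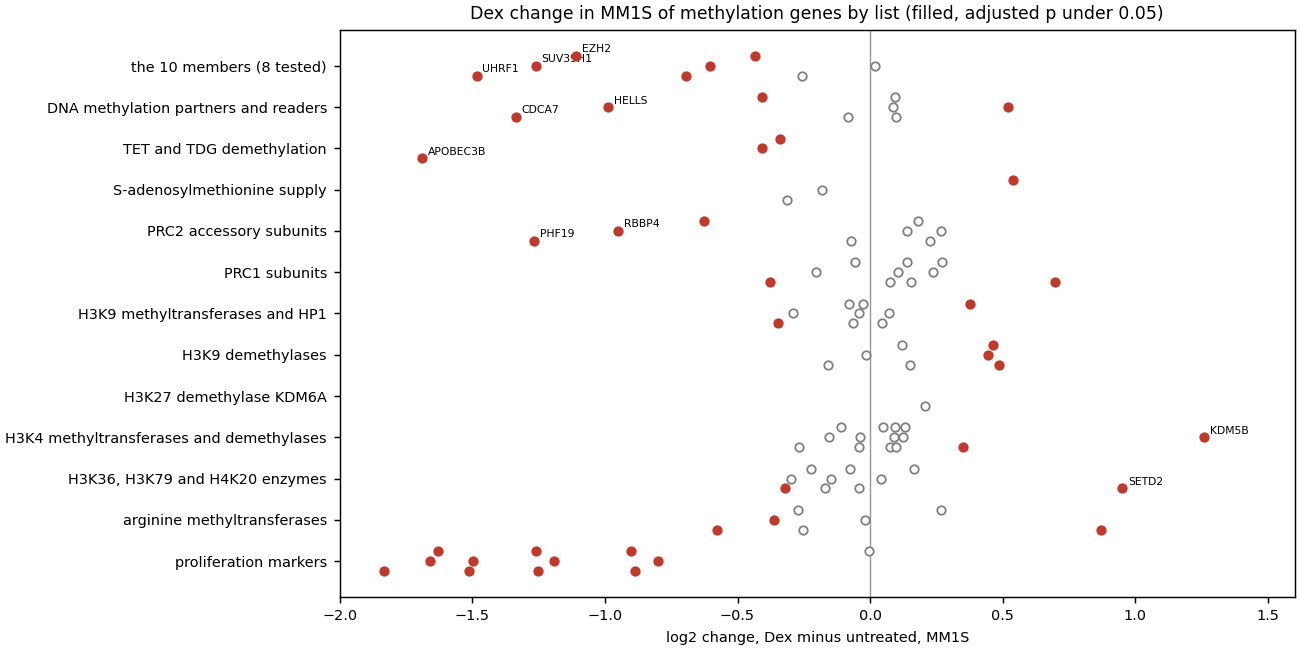
Log2 change with Dex in MM1S cells (x axis) of every tested gene of the members' list and of the other lists (y axis); each point is a gene, filled where its adjusted p is under 0.05. In the members' list 6 points are filled, all below 0, and in the 11 other methylation lists 14 filled points lie below 0 and 11 above.

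None of the 9 members tested was called with the mimetic when all 3 MM1S mimetic arrays were used (limma, adjusted p under 0.05). At that threshold 0.419% of all 12406 genes fell. A single member, SUV39H1, had an unadjusted p under 0.05, as did 2646 of the 12406 genes, so that 1 of 9 members is no more than the share over all genes. Without replicate 3, SUV39H1, EZH2 and SUZ12 fell, 3 of 8 members tested, where 9.74% of 12295 genes did. The sample labels give no reason to leave this replicate out. Leaving it out because it lies near the mock arrays favours larger changes and lower p-values.

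EZH2 read 9.66, 9.77 and 9.96 in mock and 9.24, 9.21 and 9.88 in mimetic MM1S arrays, in the order of replicates 1 to 3. Replicates 1 and 2 lay below all mock arrays and replicate 3 within them. The change was -0.35 ± 0.17 with all arrays (adjusted p = 0.267) and -0.57 ± 0.13 without replicate 3 (1.49-fold, adjusted p = 0.00727). The other EZH2 probes had changes of -0.55 and -0.70 without it (adjusted p = 0.00866 and 0.0333). SUV39H1 read 10.28, 10.40 and 10.04 in mock and 9.76, 9.67 and 10.15 in mimetic arrays. Its change was -0.38 ± 0.15 (adjusted p = 0.177) and, without replicate 3, -0.53 ± 0.14 (1.44-fold, adjusted p = 0.0162). SUZ12 read 12.67, 12.64 and 12.71 in mock and 12.07, 12.30 and 12.66 in mimetic arrays. Its change was -0.33 ± 0.16 (adjusted p = 0.293) and, without replicate 3, -0.49 ± 0.16 (1.40-fold, adjusted p = 0.0474). For each of these 3 genes replicate 3 lay within 0.09 of the mock mean.

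DNMT1 read 12.63, 12.59 and 12.48 in mock and 12.48, 12.42 and 12.71 in mimetic MM1S arrays, with overlap. Its change was -0.03 (95% interval -0.27 to 0.21) and -0.12 (-0.36 to 0.13) without replicate 3. UHRF1 read 10.93, 10.73 and 10.73 in mock and 10.68, 10.59 and 10.96 in mimetic arrays. Its change was -0.05 (-0.34 to 0.24) and -0.16 (-0.44 to 0.12) without replicate 3. DNMT3B had changes of -0.06 and -0.13 on its brightest probe, and its second probe fell by 0.25 without replicate 3 (adjusted p = 0.0352). EED and EZH1 had changes within 0.06 of 0 in either setting, and KDM6B had a change of 0.01 with all arrays.

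Proliferation markers again moved beside the result. Of the 12 markers 1 fell with all MM1S mimetic arrays and 11 without replicate 3, and their mean log2 value was 10.1 to 10.4 in mock and 9.55 to 10.1 in mimetic arrays. Of the 7 plasma cell markers IRF4 fell with all arrays (-1.67, adjusted p = 0.0455), and IRF4 (-2.22), CD38 (-1.23), TNFRSF17 (-0.72) and PRDM1 (-0.56) fell without replicate 3. The summed intensity of these 7 was 46215 to 54822 in mock and 38744 to 47410 in mimetic MM1S arrays. The part of either list in the result was not tested. Of the wider set, 0 of 84 genes were called with all arrays, and 5 rose and 6 fell of 83 without replicate 3, below the 9.57% higher and 9.74% lower over all genes. The falls included APOBEC3B (-2.20, adjusted p = 2.99e-07), HELLS (-0.58, 0.00120), RBBP7 (-0.54, 0.0221) and CBX7 (-0.67, 0.00272), beside PCGF5 (-0.37) and PRMT1 (-0.42). The genes that rose were SETD2 (1.22, 1.30e-05), KDM5B (0.46) and the arginine methyltransferases PRMT2 (0.58), PRMT5 (0.39) and PRMT7 (0.36).

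**Figure D5:**
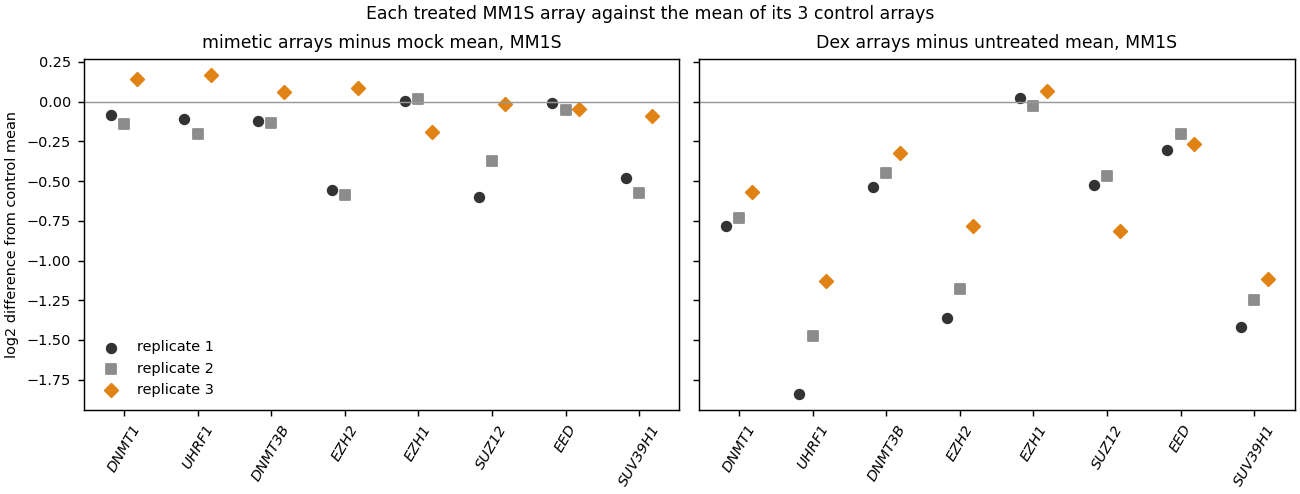
Log2 difference of each treated MM1S array from the mean of its 3 control arrays (y axis) for 8 members (x axis), for mimetic against mock and for Dex against untreated. In the mimetic panel replicate 3 (orange) lies between -0.19 and 0.17 for every gene, while replicates 1 and 2 lie at -0.37 or lower for EZH2, SUZ12 and SUV39H1.

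In MM1R cells none of the 9 members was called with the mimetic (limma), none had an unadjusted p under 0.05, and 0% of all genes were called in either direction (251 of 12406 had an unadjusted p under 0.05). EZH2 had a 95% interval of -0.43 to 0.28, SUV39H1 of -0.27 to 0.37, SUZ12 of -0.56 to 0.14, DNMT1 of -0.30 to 0.17 and UHRF1 of -0.30 to 0.27. The difference of the mimetic effect between the lines was not called for any member, with or without replicate 3 of the MM1S mimetic group. With array weights SUV39H1 was called (-0.68, adjusted p = 0.0141). With all arrays 0% of all genes were called for this difference (1607 at an unadjusted p under 0.05) and 0 of 9 members had an unadjusted p under 0.05. Without replicate 3, 5.38% of genes were called below 0, no member among them, and the differences were -0.58 ± 0.19 for SUV39H1 (adjusted p = 0.0714), -0.49 ± 0.18 for EZH2 (0.107) and -0.28 ± 0.21 for SUZ12 (0.485).

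Dex and the mimetic were compared in MM1S cells as the difference of their effects, in a fit of all 24 arrays. It was below 0 and called for UHRF1 (-1.43 ± 0.21, adjusted p = 4.53e-04), SUV39H1 (-0.88 ± 0.20, 0.0117) and DNMT1 (-0.66 ± 0.15, 0.0148), 3 of 9 members, where 2.39% of all genes were. Without replicate 3 of the MM1S mimetic group the same 3 were called, with -1.32, -0.73 and -0.58, where 3.41% of all genes were. For SUV39H1 and DNMT1 the call was lost without untreated MM1S replicate 3 or Dex MM1S replicate 1 and with median centring. EZH2 had a difference of -0.76 ± 0.23 (adjusted p = 0.0681), or -0.54 ± 0.21 without replicate 3 (0.139). For SUZ12 the difference was -0.27 (95% interval -0.68 to 0.13), or -0.12 (-0.50 to 0.27) without replicate 3. The effects start from different controls, untreated and mock transfected cells, which also differed in level. Untreated and mock MM1S means were 11.43 and 10.79 for UHRF1, 10.54 and 10.24 for SUV39H1 and 12.75 and 12.56 for DNMT1. For SUZ12 the mock mean was the higher, 12.36 and 12.67. What the starting level adds to the difference was not tested.

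Levels without Dex and mimetic were also compared between the lines, in each experiment. In untreated cells DNMT1 was lower in MM1R than in MM1S by 0.37 ± 0.10 on the log2 scale (adjusted p = 0.0306) and UHRF1 by 0.47 ± 0.14 (0.0488), 2 of 8 members, where 4.26% of all genes were lower. Both calls were lost when any of several arrays was left out, with adjusted p up to 0.130 for DNMT1 and 0.184 for UHRF1. EED had a difference of -0.32 in untreated and -0.26 in mock transfected cells (limma adjusted p = 0.0558 and 0.0638). Neither was called. DNMT1 differed by -0.02 in mock transfected cells (limma adjusted p = 0.892). In mock transfected cells UHRF1 was higher in MM1R by 0.37 ± 0.13 (adjusted p = 0.0472), where 15.3% of all genes were higher, and no member was called lower on its brightest probe, where 17.7% were. This UHRF1 call was lost in 10 of 12 fits that left out an array, and the value was 0.11 with median centring. The third EZH2 probe (ILMN_1652913) was lower in MM1R mock cells by 0.77 ± 0.21 (adjusted p = 0.0120), reading 8.93, 8.56 and 9.0 against 9.41, 9.56 and 9.85, while the other EZH2 probes differed by -0.21 and 0.05.

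Over all groups, UHRF1 levels ran from MM1S untreated (11.33 to 11.56) through MM1R mock (11.04 to 11.29), MM1R mimetic (11.12 to 11.20), MM1R untreated (10.87 to 11.01), MM1R Dex (10.73 to 11.18), MM1S mock (10.73 to 10.93) and MM1S mimetic (10.59 to 10.96) down to MM1S Dex (9.60 to 10.30). The MM1S untreated and the MM1S Dex groups overlapped no other group, and among the 6 groups in between each overlapped its neighbour in this order except MM1R mimetic and MM1R untreated. Untreated and mock arrays differ by the transfection and may differ by experiment or batch, and these cannot be told apart between them. SUZ12 was highest in MM1S mock arrays (12.64 to 12.71) and lowest in MM1S Dex arrays (11.55 to 11.89).

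The genes most like each member were taken as those with the highest Pearson correlation over the 24 arrays among 8348 genes over background in all of them. For EZH2 they were CDK2, the kinase of S phase entry (r = 0.951), TYMS, thymidylate synthase (0.926), and POLD3, a DNA polymerase subunit (0.921). For UHRF1 they were TUBA1A, a tubulin (0.964), DYNC2I2 (0.920) and TYMS (0.917), and for SUV39H1 SAE1, a SUMO-activating subunit (0.954), EXO1, a DNA exonuclease (0.952), and MELK, a mitotic kinase (0.946). SUZ12 was most like RBBP7, its partner in PRC2 (0.913), then CEP152 (0.913) and PALLD (0.909). For DNMT1 they were FAM111A (0.855), MDC1 (0.839) and FANCI (0.839), the last a DNA repair protein, and for EED MARVELD3 (0.861), NUP54 (0.847) and BCLAF1 (0.816). The points share groups of 3 arrays, and these values describe the pattern only.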

How the data were processed

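Total RNA of MM1S and MM1R cells was hybridised to Illumina HumanHT-12 arrays, 24 in 8 groups of 3, so precision is limited by 3 arrays per group and read depth does not apply. Bead intensities were read in beadarray by the authors, who deposited log2 values before normalization with a detection p-value beside each. How the deposited p-value was computed is not given in the sources used here. The authors' quantile-normalized log2 table (limma 3.14.1) was an alternative, and it lay a median of 0.000138 and at most 0.129 log2 units from the values used.

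Quantile normalization over the 24 arrays was done in limma 3.58.1 (R 4.3.3). Of 47224 probes, 4 with missing values were dropped. Symbols came from the platform annotation, updated through RefSeq (30106 probes with 1 symbol, 8 with several, 17106 with none). A probe entered a fit where 3 or more of its arrays had a detection p-value below 0.05. The fits used lmFit and eBayes (trend), with Benjamini-Hochberg adjustment over every probe that entered, and each experiment was fitted as 4 groups. Genes with several probes are represented by the one brightest on average over the 24 arrays, and a call is an adjusted p under 0.05. Only the fit of the Dex experiment was tested on simulated data, and the transfection fit and the fit of all 24 arrays were not.

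The members, the lists and the motifs were chosen with earlier results of these data known. Named genes were every member, up to 3 genes per list with the smallest adjusted p in MM1S cells with Dex and up to 2 that passed in the other direction, and the 3 genes most like each member. The list genes named for the mimetic were chosen after their values were seen. Plots were drawn with matplotlib 3.10.9.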

Additional observations from a re-analysis of the deposited data

Results flagged for a closer look

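The Dex effect differed between MM1S and MM1R cells by the test of the difference itself for 5 members, given as the log2 change in MM1S minus that in MM1R: DNMT1 -0.76, UHRF1 -1.44, EZH2 -0.90, SUZ12 -0.57 and SUV39H1 -1.30.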

How the results depend on the processing

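Alternatives were median centring, the authors' normalized table, normexp background correction, no filter, a detection p-value under 0.01, array weights, a fit of all 24 arrays or of only the groups compared, title or description numbers as a replicate block, a call where at least 1 probe passes, a fold change over 2, and leaving out each array. They gave 1906 values for single members, of which none reversed a call, 50 lost one and 36 gained one, and 60 changed sign while uncalled. Most of these values belong to results with no call in the main fit, where none can be lost. For UHRF1 in untreated MM1R against MM1S, the call was lost in 5 of 12 settings and 8 of 12 fits without an array. For UHRF1 in mock MM1R against MM1S, it was lost in 4 of 12 and 10 of 12. Slide as a block was not run. With a fold change over 2, 3 members were lower with Dex in MM1S cells, 2 for the difference of the Dex effect, 1 for Dex minus mimetic, 0 for MM1R against MM1S untreated, and 0 were higher for MM1R against MM1S mock. With array weights 3 members were lower with the mimetic in MM1S cells and 1 for the difference of the mimetic effect. For untreated MM1R against MM1S, members lower numbered 0 with median centring and 1 each with normexp, no filter and all 24 arrays. For mock MM1R against MM1S, members higher numbered 0 with median centring, no filter and all 24 arrays and 2 with only the groups compared and array weights, and members lower numbered 1 with median centring, all 24 arrays and array weights, and where 1 probe passes. For Dex minus mimetic, members lower numbered 1 with median centring. The causes were not tested.

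Leaving out each array gave 5 to 7 members lower with Dex in MM1S cells, 5 to 6 for the difference of the Dex effect, 0 to 3 with the mimetic in MM1S cells, 0 to 3 for untreated MM1R against MM1S, 0 to 2 higher and 0 to 1 lower for mock MM1R against MM1S, and 1 to 4 for Dex minus mimetic. All other counts stayed at 0. With the replicate block by either numbering 6 members were lower with Dex in MM1S cells, 6 for the difference of the Dex effect (5 without it, DNMT3B being added), 4 for Dex minus mimetic (3 without it, EZH2 being added), 2 for untreated MM1R against MM1S, and 1 was higher for mock MM1R against MM1S. The numbers are not known to pair the arrays, since correlations of same-numbered arrays went down to -0.60.

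Median centring moved the median of all genes to -0.12 for mock MM1R against MM1S (main -0.01). It called 764 genes higher and 3420 lower there (main 1900 and 2199), 2187 and 1085 with Dex in MM1S cells (main 1648 and 1555), 1233 and 703 for the difference of the Dex effect (main 1006 and 1015), and 135 and 71 for Dex minus mimetic (main 194 and 318). For the mimetic in MM1S cells the main 18 higher and 52 lower became 2366 and 2010 (array weights), 502 and 579 (all 24 arrays), 253 and 387 with the replicate block, 41 and 65 with median centring, 91 and 168 with no filter, 23 and 83 where 1 probe passes, and 0 with only the groups compared. The difference of the mimetic effect (main 0) had 1201 and 1246 (array weights), 1 and 19 (all 24 arrays) and 0 and 1 with the replicate block, and Dex minus mimetic had 1066 and 1161 with array weights. For untreated MM1R against MM1S the main 604 and 492 became 538 and 308 with median centring, 794 and 756 with only the groups compared, 360 and 265 with all 24 arrays and 846 and 797 with array weights. Signal near background limits DNMT3A, DNMT3B, EZH1 and KDM6B.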
